A study of Mus musculus with 6 samples.

Results

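The 9 genes described here encode parts of the machinery that makes peptides and loads them onto major histocompatibility complex (MHC) class I molecules: the light chain B2m, the heavy chain H2-M3, the transporter subunits Tap1 and Tap2, the peptide editors Tapbp and Tapbpl, and the immunoproteasome subunits Psmb8, Psmb9 and Psmb10. They were chosen by gene symbol, are 9 of 18193 genes tested, and have 16 single-symbol probe sets of the 45037 on the array that are not controls. Expression was measured on 6 Affymetrix arrays of total RNA from cells grown from C57BL/6 mouse bone marrow, in 3 groups of 2. GM-TNFa-DC were dendritic cells derived from GM-MPP in GM-CSF to which TNFa, an inflammatory cytokine, was added. GM-DC were dendritic cells derived from GM-MPP in GM-CSF without TNFa. GM-MPP were multipotent progenitors obtained with GM-CSF and stem cell cytokines. GM-CSF was thus common to the 3 groups. Whether arrays of 1 group stem from different cultures or mice is not stated, so a p-value here measures only the spread between arrays, and that spread may be technical. No time in culture, age or purity is given in the sources used here.

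Class I molecules show peptides from inside a cell to CD8 T cells. The proteasome cuts proteins into peptides, the TAP transporter carries them into the endoplasmic reticulum, and a loading complex with tapasin, calreticulin and a disulfide isomerase fits them into a heavy chain paired with beta-2-microglobulin. In the immunoproteasome, common in immune cells and induced by interferon, Psmb8, Psmb9 and Psmb10 take the places of the constitutive catalytic subunits Psmb5, Psmb6 and Psmb7. Dendritic cells use this route for their own proteins and, in cross-presentation, for proteins they have taken up. Interferons and NF-kB, the pathway TNFa acts through, are known inducers of many class I genes.

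Of the 9 genes, 6 lie on chromosome 17, where 4 of them form a cluster of 34.3 kb in GRCm38.p6 (chr17:34182030-34216321) in the order Psmb9, Tap1, Psmb8 and Tap2. Tapbp (chr17:33919478-33929290) and H2-M3 (chr17:37270234-37274485) lie on either side of it. B2m is at chr2:122147687-122153082, Tapbpl at chr6:125223927-125231860 and Psmb10 at chr8:105935728-105938392. Psmb9 and Tap1 point away from each other with 225 bases between their annotated starts, so that 1 interval lies upstream of both, and its sequence is shown because both genes had the same order of groups. The 250 bases before the starts of B2m, H2-M3 and Psmb8 are shown because each holds a match to a searched motif, in capitals. Sequences are from RefSeq, build GRCm38.p6, plus strand, at chr2:122147437-122147686, chr17:37269984-37270233, chr17:34197945-34198194 and chr17:34187331-34187555 in the order printed.
B2m: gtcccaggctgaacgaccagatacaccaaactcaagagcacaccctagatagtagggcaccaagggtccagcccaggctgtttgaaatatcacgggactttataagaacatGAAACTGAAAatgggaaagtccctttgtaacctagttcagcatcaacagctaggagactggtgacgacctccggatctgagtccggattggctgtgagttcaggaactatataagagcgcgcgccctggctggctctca
H2-M3: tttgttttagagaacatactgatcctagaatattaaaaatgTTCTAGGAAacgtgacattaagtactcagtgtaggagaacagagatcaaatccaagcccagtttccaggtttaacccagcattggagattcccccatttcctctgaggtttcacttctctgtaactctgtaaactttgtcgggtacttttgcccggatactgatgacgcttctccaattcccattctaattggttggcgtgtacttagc
Psmb8: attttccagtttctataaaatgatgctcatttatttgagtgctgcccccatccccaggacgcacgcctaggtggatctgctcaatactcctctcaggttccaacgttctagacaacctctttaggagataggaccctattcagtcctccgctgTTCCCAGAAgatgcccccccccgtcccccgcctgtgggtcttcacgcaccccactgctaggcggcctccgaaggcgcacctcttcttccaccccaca
Psmb9 to Tap1: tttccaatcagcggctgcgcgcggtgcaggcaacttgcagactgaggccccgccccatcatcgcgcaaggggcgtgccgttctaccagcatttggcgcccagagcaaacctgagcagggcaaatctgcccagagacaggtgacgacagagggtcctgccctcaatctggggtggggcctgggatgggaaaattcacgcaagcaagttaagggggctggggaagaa

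Windows from 250 bases before to 50 after a start were found for 7 of the 9 genes and searched on both strands. The core of the interferon-stimulated response element, GAAA, any 2 bases and GAAA again, was in 1 of the 7, B2m, where the match GAAACTGAAA begins at position -139 from the start, and in 3.44% of all 32851 windows. The gamma-activated site, TTCNNNGAA, which reads the same on both strands, was in 2 of the 7 and in 8.3% of all windows. Its matches were TTCCCAGAA in Psmb8 and TTCTAGGAA in H2-M3. An NF-kB site was searched only as GGGNNTTCC, which takes in the narrower form GGGANTTCC. This spelling was in 0 of the 7 and in 5.82% of all windows. NF-kB sites of another length or spelling were not searched for, so 0 of the 7 does not mean that the windows hold none. The B2m sequence printed above has ggaaagtccc shortly after its capitals. Read on the other strand, these letters are the searched spelling with 1 more base in the middle, a longer form that the search could not match. Whether the 7 windows hold further forms was not tested. The matches found are of letters, not sites of binding. The absence of a match says only that the letters searched are not in the window.

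Levels are on the log2 scale, and the medians of the arrays lay between 4.67 and 4.77, close to background. In both dendritic cell groups, number 1 stood apart from number 2: over all genes the differences between number 1 and number 2 had a correlation of 0.806 between GM-TNFa-DC and GM-DC, against 0.105 between GM-DC and GM-MPP and 0.072 between GM-TNFa-DC and GM-MPP. Poly-A controls added before labelling were brighter on number 1 by 2.6-fold, 2.16-fold and 2.39-fold in GM-TNFa-DC, GM-DC and GM-MPP. Each array is therefore given by its number. Of 12 dendritic cell markers, 8 passed as higher in GM-DC than in GM-MPP, among them Itgax and Ccr7. Flt3, also a progenitor marker, fell, and Zbtb46 was at 6.45 and 4.55 in GM-DC against 3.95 and 3.85 in GM-MPP. Of 9 progenitor and granule markers, 8 fell, and Kit did not pass.

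**Figure D1:**
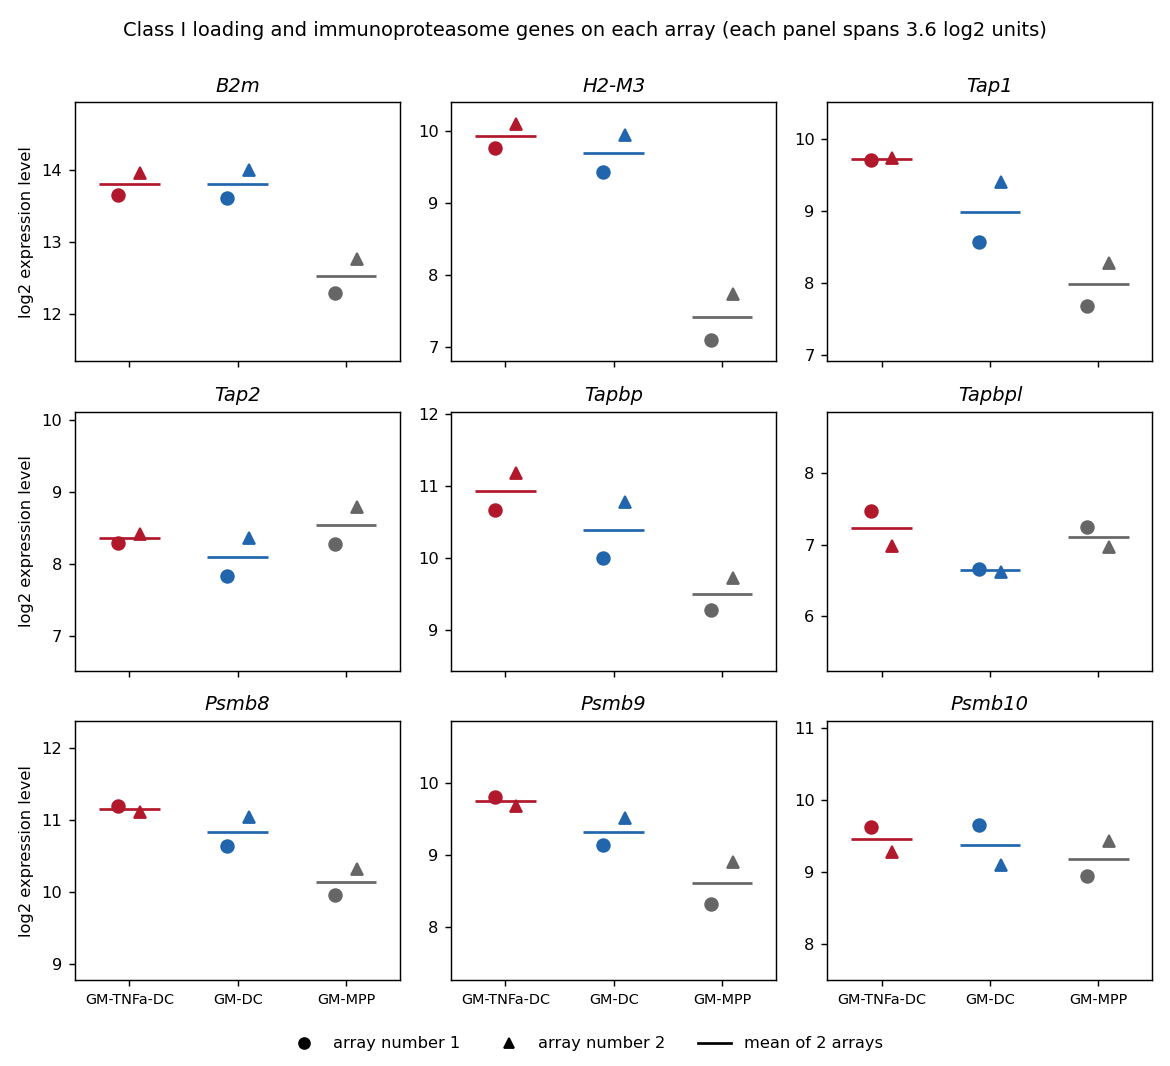
Log2 expression level of the 9 genes on each of the 6 arrays. Circles are number-1 arrays, triangles number-2 arrays and lines the mean of 2 arrays. H2-M3, B2m, Tap1, Tapbp, Psmb8 and Psmb9 were higher on every dendritic cell array than on either GM-MPP array, while Tap2 and Psmb10 overlapped.

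H2-M3, a nonclassical class I heavy chain that presents formylated peptides such as those of bacteria, differed most between dendritic cells and progenitors among the 9. It was at 9.77 and 10.11 on the GM-TNFa-DC arrays 1 and 2, at 9.44 and 9.95 on the GM-DC arrays, and at 7.10 and 7.74 on the GM-MPP arrays. Every dendritic cell array was above both progenitor arrays, and the dendritic cell groups overlapped. H2-M3 rose by 2.28 ± 0.32 on the log2 scale (moderated SE) in GM-DC against GM-MPP, a 4.85-fold difference (limma adjusted p = 0.0251), and by 2.52 ± 0.32 in GM-TNFa-DC against GM-MPP, or 5.74-fold (adjusted p = 0.0169). The call in GM-DC was lost when any one of the 4 arrays compared was left out, with adjusted p = 0.0857 without GM-DC 1, 0.105 without GM-DC 2, 0.153 without GM-MPP 1 and 0.0953 without GM-MPP 2, at changes of 1.96 to 2.59. In GM-TNFa-DC it was likewise lost, with adjusted p = 0.0569 without GM-TNFa-DC 1, 0.0543 without GM-TNFa-DC 2, 0.117 without GM-MPP 1 and 0.0718 without GM-MPP 2. The heavy chain's 1 probe set gives no second reading on the array.

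B2m encodes beta-2-microglobulin, the light chain that class I heavy chains need to fold and reach the surface. Its level was 13.65 and 13.95 in GM-TNFa-DC, 13.60 and 13.99 in GM-DC, and 12.28 and 12.76 in GM-MPP. The dendritic cell groups covered the same range, apart from the progenitors and near the brightest values of the arrays (14.0 to 14.4), where differences can be compressed. B2m rose by 1.28 ± 0.23 in GM-DC against GM-MPP (2.43-fold, adjusted p = 0.0457) and by 1.29 ± 0.23 in GM-TNFa-DC against GM-MPP (2.44-fold, adjusted p = 0.0377). Its other probe set differed by 1.29 and 1.35. The GM-DC call was close to the threshold: it was lost without any single array (adjusted p between 0.0575 and 0.249), including either GM-TNFa-DC array, which enters only through the shared spread. The GM-TNFa-DC call was lost without any single array too (adjusted p between 0.0553 and 0.213).

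Tap1 and Tap2 encode the chains of the TAP transporter, which works as a pair of both proteins. The group means of their RNA lay in different orders here, though the groups overlapped for Tap2. Tap1 was at 9.71 and 9.73 in GM-TNFa-DC, 8.57 and 9.40 in GM-DC, and 7.68 and 8.27 in GM-MPP. The groups did not overlap and lay in the order GM-TNFa-DC, GM-DC, GM-MPP. Tap1 rose by 1.75 ± 0.35 in GM-TNFa-DC against GM-MPP (3.35-fold, adjusted p = 0.047), a call lost without either GM-TNFa-DC array (adjusted p = 0.134 and 0.119 without numbers 1 and 2) and without either GM-MPP array (0.261 and 0.138). In GM-DC against GM-MPP its change was 1.01 ± 0.35 (adjusted p = 0.182). Of its 4 probe sets, 3 were dim, between 2.44 and 4.88, and differed by -0.15 to 0.48 in GM-TNFa-DC against GM-MPP, so that a mean over the 4 gave 0.49 (adjusted p = 0.141).

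Tap2 was at 8.29 and 8.42 in GM-TNFa-DC, 7.84 and 8.36 in GM-DC, and 8.28 and 8.80 in GM-MPP. The 3 groups overlapped, and the highest value was on a progenitor array. Its changes against GM-MPP were -0.19 ± 0.29 in GM-TNFa-DC (adjusted p = 0.733) and -0.44 ± 0.29 in GM-DC (adjusted p = 0.449), with 95% intervals of -0.91 to 0.54 and -1.16 to 0.28. Those of Tap1 were 0.87 to 2.62 and 0.13 to 1.89, and the interval of Tap1 in GM-TNFa-DC did not reach that of Tap2. The difference between the genes was not tested, and Tap2 has no other single-symbol probe set on the array to give a second reading.

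Tapbp encodes tapasin, which holds class I next to TAP and edits its peptides. It was at 10.67 and 11.19 in GM-TNFa-DC, 10 and 10.78 in GM-DC, and 9.28 and 9.72 in GM-MPP. Every dendritic cell array was above both progenitor arrays. Its changes of 1.43 ± 0.35 in GM-TNFa-DC (adjusted p = 0.0742) and 0.89 ± 0.35 in GM-DC (adjusted p = 0.226) against GM-MPP did not pass the threshold. Its dimmer probe set differed by 1.53 and 0.91 in the same comparisons, close to the brighter one. Tapbpl, an editor related to tapasin that works outside the TAP complex, had another order: 7.47 and 6.98 in GM-TNFa-DC, 6.66 and 6.62 in GM-DC, and 7.25 and 6.96 in GM-MPP. GM-DC was the lowest group without overlap, and the other 2 groups overlapped. The change of -0.46 ± 0.25 in GM-DC against GM-MPP did not pass (adjusted p = 0.349). On the dimmer Tapbpl probe set GM-DC was also below GM-MPP without overlap, by -0.24, but overlapped GM-TNFa-DC.

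Psmb8, the immunoproteasome subunit with chymotrypsin-like activity, was at 11.19 and 11.10 in GM-TNFa-DC, 10.63 and 11.04 in GM-DC, and 9.95 and 10.32 in GM-MPP. Psmb9, the subunit in the place of Psmb6, was at 9.80 and 9.67 in GM-TNFa-DC, 9.14 and 9.51 in GM-DC, and 8.31 and 8.90 in GM-MPP. For both genes the groups did not overlap, in the order GM-TNFa-DC, GM-DC, GM-MPP. The closest Psmb8 values of GM-TNFa-DC and GM-DC were 11.10 and 11.04. A dimmer Psmb8 probe set, between 4.33 and 5.13, had the same order without overlap. It differed from GM-MPP by 0.70 in GM-TNFa-DC and 0.36 in GM-DC. In GM-TNFa-DC against GM-MPP the changes were 1.01 ± 0.23 for Psmb8 (adjusted p = 0.0642) and 1.13 ± 0.28 for Psmb9 (adjusted p = 0.0746), and in GM-DC against GM-MPP 0.70 ± 0.23 (adjusted p = 0.166) and 0.72 ± 0.28 (adjusted p = 0.218), none of which passed.

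Psmb10, the subunit in the place of Psmb7, was at 9.62 and 9.28 in GM-TNFa-DC, 9.65 and 9.10 in GM-DC, and 8.94 and 9.43 in GM-MPP. The 3 groups overlapped. Number 1 was the higher array in both dendritic cell groups and the lower one in GM-MPP, so the change in GM-DC against GM-MPP was 0.71 on number 1 and -0.33 on number 2, around a mean of 0.19 ± 0.30 (adjusted p = 0.771). On this gene alone of the 9 did the numbers go opposite ways in that comparison. In GM-TNFa-DC against GM-MPP the change was 0.27 ± 0.30 (adjusted p = 0.626).

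**Figure D2:**
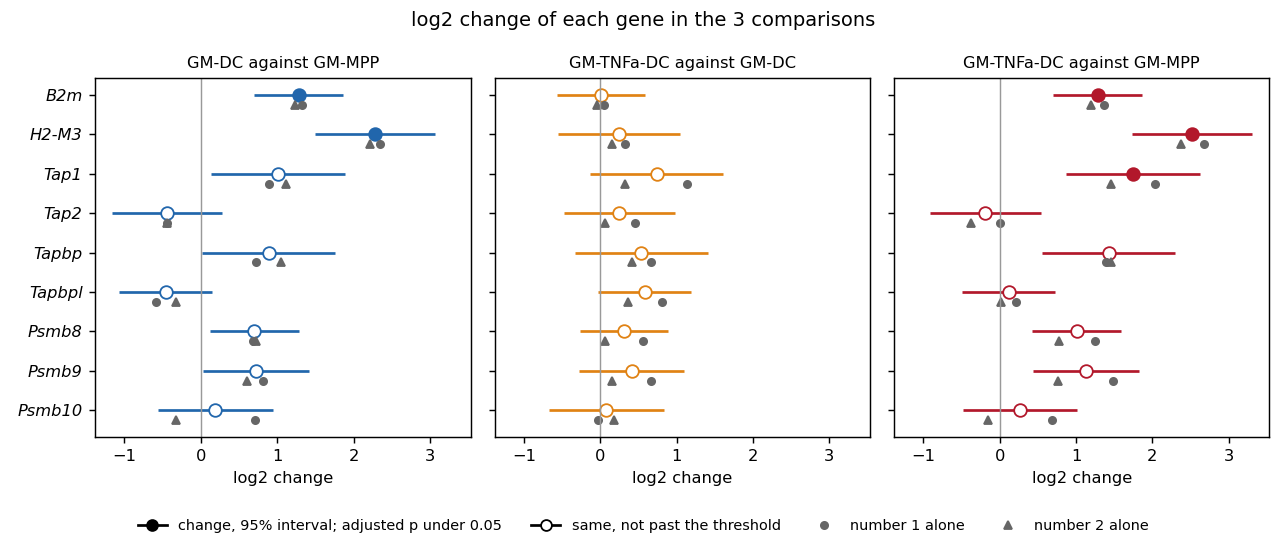
Log2 change of each of the 9 genes in the 3 comparisons, with 95% intervals (filled where the adjusted p is under 0.05) and the change on array number 1 and number 2 alone as small symbols. H2-M3 and B2m are filled in both comparisons with GM-MPP, Tap1 only in GM-TNFa-DC, and no gene in GM-TNFa-DC against GM-DC.

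Setting GM-DC against GM-MPP shows what differs between progenitors and the dendritic cells grown from them. Of the 9 genes 2 passed as higher and 0 as lower, where 1.87% of all genes passed as higher and 2.63% as lower (340 and 479 genes). In 6 of the 9 the GM-DC arrays were both above the GM-MPP arrays, against 28.3% of all genes, and in 1, Tapbpl, both below, against 27.0%. Without adjustment, 6 had a higher level at p under 0.05 and 0 a lower one, against 9.06% and 12.5% of all genes. The mean was higher for 7 (53.1% of all genes), and the level on both numbers for 6 (35.5%). Their median log2 change was 0.72, on number 1 as on number 2, and 0.02 over all genes. Beside these values, 1 of 8 monocyte and macrophage markers, Cd68, passed as higher in GM-DC, and the mean level of the 8 was 10.84 and 11.24 in GM-DC against 9.14 and 9.61 in GM-MPP. Within that list single markers parted the GM-DC arrays: Cd14 was at 7.48 and 12.50 in GM-DC against 8.24 and 9.25 in GM-MPP, and Mrc1 at 11.85 and 8.48 in GM-DC against 9.05 and 8.33 in GM-MPP. Of 6 neutrophil markers, 1 fell, S100a8, and 5 were lower without overlap, with a mean level of 9.87 and 8.43 in GM-DC against 11.59 and 12.33 in GM-MPP. Of 5 mast cell and basophil markers, 2 fell, Mcpt8 and Ms4a2, with a mean level of 5.93 and 5.45 in GM-DC against 7.60 and 7.57 in GM-MPP. Of 8 lymphocyte and NK cell markers, 2 fell, Nkg7 and Cd79b, with a mean level of 3.92 and 4.04 in GM-DC against 4.49 and 4.89 in GM-MPP. The part of these markers in the result was not tested. In bulk RNA, more cells of a type and more RNA per cell cannot be told apart.

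GM-TNFa-DC against GM-MPP shares its progenitor arrays with that comparison. Of the 9 genes 3 passed as higher and 0 as lower, where 2.77% of all genes passed as higher and 4.26% as lower (504 and 775 genes). In 6 of the 9 the GM-TNFa-DC arrays were both above the GM-MPP arrays, against 31.6% of all genes, and in 0 both below, against 26.1%. Without adjustment, 6 had a higher level at p under 0.05 and 0 a lower one, against 11.5% and 13.6% of all genes. The mean was higher for 8 (56.0% of all genes), and the level on both numbers for 7 (39.1%). Number 1 gave a median log2 change of 1.37 and number 2 of 0.78, around 1.13 for the group means, where all genes had 0.05. The 8 monocyte and macrophage markers had a mean level of 10.34 and 11.02 in GM-TNFa-DC, and Cd68 was again the 1 that passed. Cd14 was at 8.5 and 13.18 and Mrc1 at 10.22 and 6.73 in GM-TNFa-DC, parted by number as in GM-DC. Of the neutrophil markers 2 of 6 fell, of mast cell and basophil markers 4 of 5, and of lymphocyte and NK cell markers 2 of 8. Their part in the result was not tested. The 6 genes without overlap were the same in both comparisons: B2m, H2-M3, Tap1, Tapbp, Psmb8 and Psmb9.

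**Figure D3:**
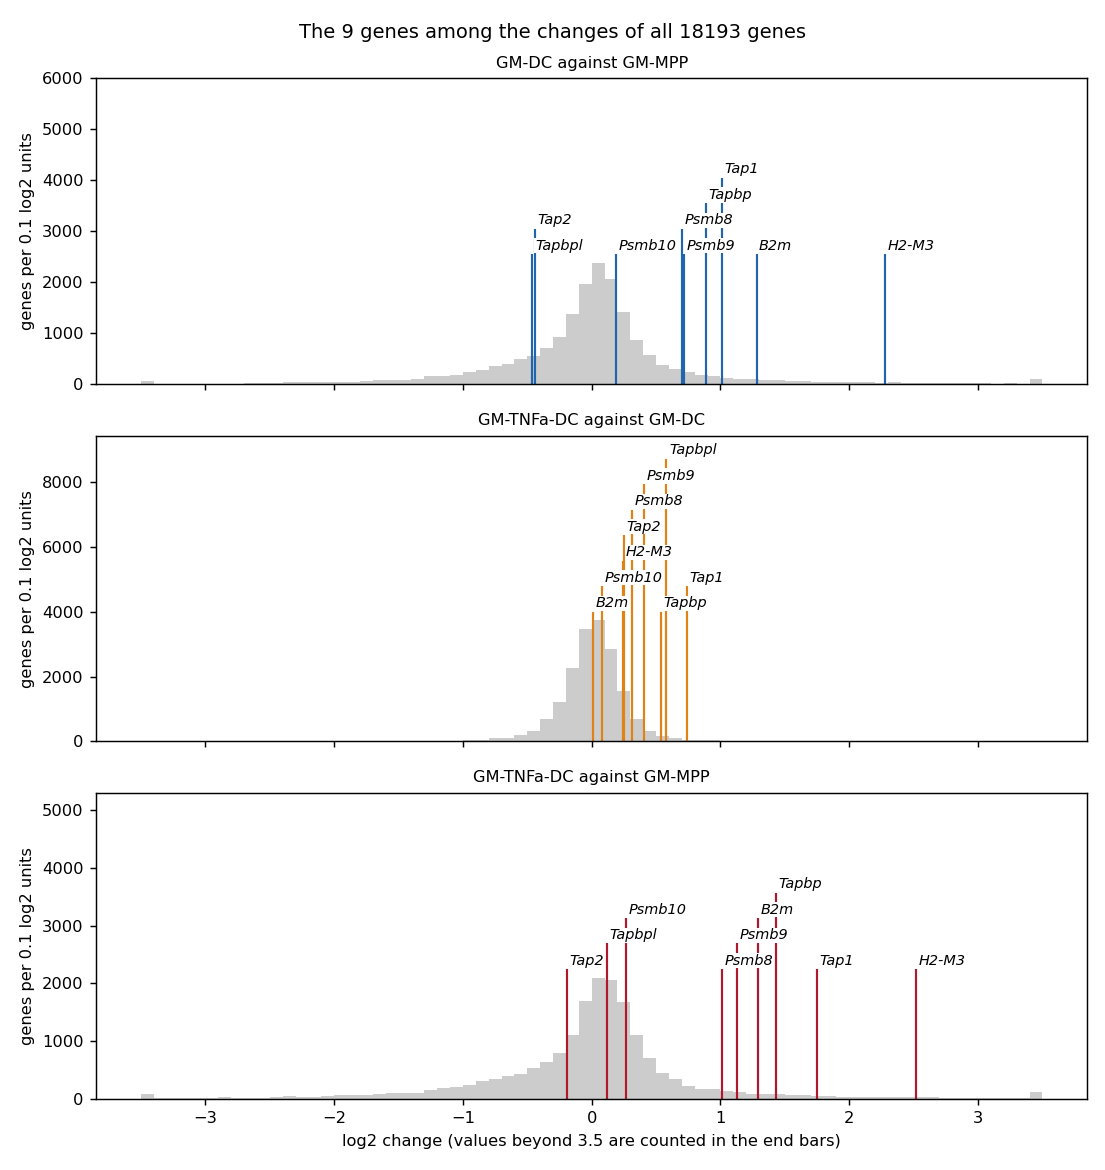
Distribution of the log2 changes of all 18193 genes (grey bars, genes per 0.1 log2 units) with the 9 genes marked, 1 panel a comparison. H2-M3 lies at the 98.4th percentile in GM-DC against GM-MPP, Tap1 at the 99.1st in GM-TNFa-DC against GM-DC, and B2m in the middle of that distribution at the 48.4th.

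What TNFa added to GM-CSF is the question of GM-TNFa-DC against GM-DC. None of the 9 genes passed (limma adjusted p = 1 for each), and 0.0% of all genes did in either direction. At an unadjusted p under 0.05 it was also 0 of the 9, against 1.48% of all genes higher and 0.77% lower. The mean was above that in GM-DC for 9 of the 9 genes, against 53.0% of all genes, and the level was higher on both numbers for 7, against 30.9%. The count of 9 includes B2m, with a change of 0.01, and Psmb10, with 0.08. It also depends on GM-DC 1: without that array B2m was at -0.19 and H2-M3 and Tap2 at -0.01, while the other genes stayed above 0. Number 1 gave a median log2 change of 0.56 and number 2 of 0.16, around 0.31 for the group means, where all genes had 0.01.

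The groups did not overlap for 4 of the 9 genes, Tap1, Tapbpl, Psmb8 and Psmb9, each higher in GM-TNFa-DC, against 14.9% of all genes. None was lower without overlap, against 10.6%. Tap1 had the largest change of the 9, 0.74 ± 0.35 (1.67-fold, unadjusted p = 0.0849, 95% interval -0.14 to 1.61), at 1.14 on number 1 and 0.33 on number 2. Tapbpl followed with 0.58 ± 0.25 (unadjusted p = 0.0574), at 0.81 and 0.36. Tapbp differed by 0.54 ± 0.35, at 0.67 and 0.41, and Psmb9 by 0.41 ± 0.28, at 0.66 and 0.16. Psmb8 differed by 0.31 ± 0.23, at 0.56 and 0.06, Tap2 by 0.25 ± 0.29, at 0.45 and 0.06, and H2-M3 by 0.24 ± 0.32, at 0.33 and 0.16. In all of these genes the difference on number 1 was the larger one. Psmb10 differed by 0.08 ± 0.30, at -0.03 and 0.18, and B2m was at 0.05 and -0.04. B2m differed by 0.01 ± 0.23, with an interval of -0.57 to 0.59, at a level where the array can compress differences. The intervals of the 9 genes all hold 0, and their upper ends lie between 0.59 and 1.61.

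Within GM-MPP the number-1 array was the lower one for 8 of the 9 genes, against 50.0% of all genes, and within GM-DC for 7, against 49.9%. Within GM-TNFa-DC it was the lower one for 5, against 55.5%. B2m, H2-M3, Tap1, Tap2 and Tapbp were lower on number 1 in the 3 groups alike, which held for 19.4% of all genes. Compared number by number, the change of H2-M3 in GM-DC against GM-MPP was 2.34 on number 1 and 2.21 on number 2. For Tap1 the changes were 0.89 and 1.12, for Tapbp 0.72 and 1.05, and for Psmb8 0.68 and 0.72.

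Each immunoproteasome subunit was set against the constitutive subunit it replaces, as the log2 difference within an array, of which only changes between groups can be read. Psmb8 minus Psmb5 was 1.40 and 0.69 in GM-TNFa-DC, 0.83 and 0.87 in GM-DC, and -0.95 and -0.26 in GM-MPP. Both dendritic cell groups lay above GM-MPP without overlap, by 1.65 in GM-TNFa-DC and 1.45 in GM-DC, or 3.15-fold and 2.74-fold. In GM-DC against GM-MPP, Psmb8 itself differed by 0.70 and Psmb5 by -0.75. The exact two-sided permutation p was 0.333 in both, the smallest that 2 against 2 arrays allow.

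Psmb9 minus Psmb6 was -0.55 and -1.11 in GM-TNFa-DC, -1.47 and -0.97 in GM-DC, and -1.75 and -0.84 in GM-MPP. The groups overlapped: Psmb6 was higher in GM-DC than in GM-MPP by 0.64 ± 0.23 (adjusted p = 0.197), beside 0.72 for Psmb9. Psmb10 minus Psmb7 was -0.88 and -1.70 in GM-TNFa-DC, -0.78 and -1.77 in GM-DC, and -2.33 and -1.40 in GM-MPP, and also overlapped. The numbers went opposite ways, with 1.55 on number 1 and -0.37 on number 2 in GM-DC against GM-MPP. The exact permutation p for these pairs was between 0.667 and 1 in the 3 comparisons.

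**Figure D4:**
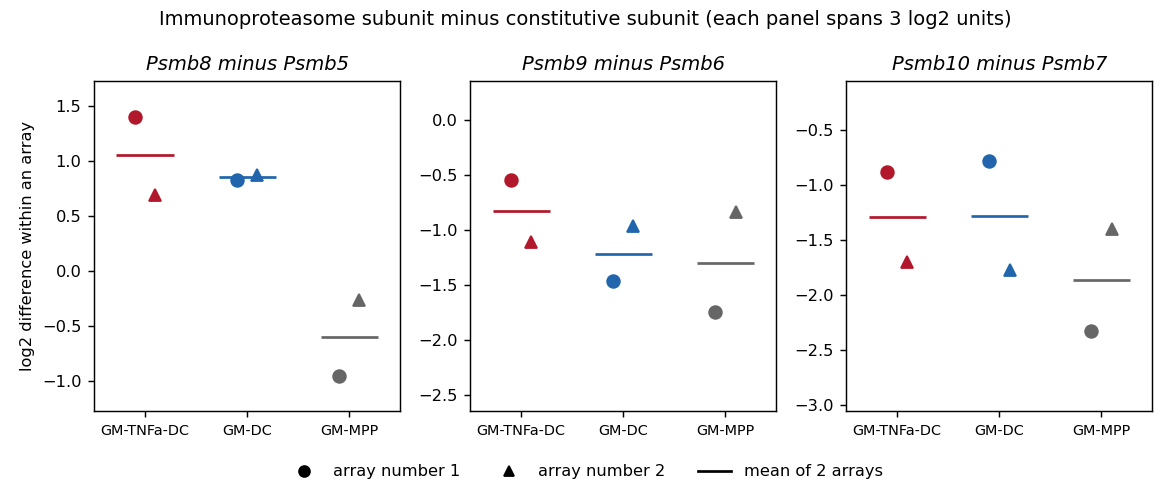
Log2 difference between each immunoproteasome subunit and the constitutive subunit it replaces, on each array, with the group mean as a line. Psmb8 minus Psmb5 is above 0.6 on every dendritic cell array and below 0 on both GM-MPP arrays, while the other pairs overlap.

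Other genes of the class I route were read from lists. Of 10 other class I heavy chain and related genes with a probe set of their own, 1 passed in GM-DC against GM-MPP, Mr1 (2.55 ± 0.46, adjusted p = 0.0449), which presents vitamin metabolites. For GM-TNFa-DC against GM-MPP it was 1, the lipid-presenting Cd1d1 (3.39 ± 0.65, adjusted p = 0.0422), and 0 passed as lower in either comparison. Over all genes, 1.87% and 2.77% passed as higher in these comparisons. Of the classical heavy chains, H2-K1 was at 13.07 and 13.48 in GM-TNFa-DC, 12.50 and 13.39 in GM-DC and 11.44 and 11.96 in GM-MPP. H2-D1 was at 13.15 and 13.51 in GM-TNFa-DC, 13.06 and 13.43 in GM-DC, and 12.08 and 12.52 in GM-MPP. Neither overlapped GM-MPP, and neither passed: in GM-DC against GM-MPP H2-K1 differed by 1.25 ± 0.35 (adjusted p = 0.12) and H2-D1 by 0.94 ± 0.24 (adjusted p = 0.0922). These genes are near-identical copies whose probe sets can share signal. The list's median was 0.63 in GM-DC and 0.75 in GM-TNFa-DC against GM-MPP, where all genes had 0.02 and 0.05.

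General chaperones and trimming enzymes of the endoplasmic reticulum and cytosol had medians below 0 against GM-MPP. Of 15, 0 passed in GM-DC against GM-MPP and 13 had a lower mean, with a median of -0.49, where 53.1% of all genes had a higher mean. Without overlap, 1 was higher and 10 lower, against 28.3% and 27.0% of all genes. Ide, a metalloprotease that degrades insulin, was the only call in GM-TNFa-DC against GM-MPP and fell by 1.58 ± 0.30 (adjusted p = 0.0409). In that comparison 4.26% of all genes passed as lower. Members of the loading complex differed by -0.73 ± 0.27 for Calr (calreticulin), -0.63 ± 0.36 for Pdia3 (the disulfide isomerase) and -0.22 ± 0.30 for Canx (calnexin) in GM-DC against GM-MPP, none past the threshold. Erap1, which trims peptides in the endoplasmic reticulum, differed by -0.22 ± 0.20.

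Of the constitutive subunits Psmb5, Psmb6 and Psmb7, 0 passed in the 3 comparisons. Of 8 proteasome activators and assembly factors 1 fell in GM-DC against GM-MPP, the assembly chaperone Psmg1 (-1.44 ± 0.24, adjusted p = 0.0345), and 2 in GM-TNFa-DC against GM-MPP, Psmg1 (-1.51 ± 0.24, adjusted p = 0.0264) and its partner Psmg2 (-1.29 ± 0.21, adjusted p = 0.0298). Over all genes, 2.63% and 4.26% passed as lower in these comparisons. Psme1, a subunit of the interferon-inducible activator, was at 10.79 and 10.22 in GM-TNFa-DC, 10.22 and 10.04 in GM-DC, and 9.83 and 9.91 in GM-MPP. It did not pass in GM-TNFa-DC against GM-MPP (0.64 ± 0.25, adjusted p = 0.187). The list's median was -0.68 in GM-DC and -0.64 in GM-TNFa-DC against GM-MPP.

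Of 22 regulators of class I genes, 2 rose in GM-DC against GM-MPP, the TNF receptor Tnfrsf1b (1.89 ± 0.34, adjusted p = 0.0428) and the interferon signalling factor Stat2 (1.48 ± 0.25, adjusted p = 0.0393), and 0 fell. In GM-TNFa-DC against GM-MPP 4 rose and 0 fell: Irf8, a factor of dendritic cell development (3.64 ± 0.69, adjusted p = 0.0411), Tnfrsf1b, Stat2 and the interferon-gamma receptor subunit Ifngr2 (1.43 ± 0.26, adjusted p = 0.0392). The partner receptor chain Ifngr1 was lower without overlap there (-1.27 ± 0.30, adjusted p = 0.0658), as was the other TNF receptor, Tnfrsf1a (-0.54 ± 0.20, adjusted p = 0.173). Without overlap, 14 of the 22 were higher and 6 lower in that comparison, against 31.6% and 26.1% of all genes. In GM-DC against GM-MPP 11 were higher and 7 lower, against 28.3% and 27.0% of all genes. Nlrc5, the main transactivator of class I genes, was at 7.84 and 7.36 in GM-TNFa-DC, 6.87 and 7.21 in GM-DC, and 5.49 and 6.79 in GM-MPP. Its groups did not overlap and lay in the order of Tap1, Psmb8 and Psmb9, but its change of 1.46 ± 0.46 in GM-TNFa-DC against GM-MPP did not pass (adjusted p = 0.125). Irf1, an interferon-induced factor that binds the response element searched above, differed by 1.38 ± 0.38 in the same comparison (adjusted p = 0.0959). In GM-TNFa-DC against GM-DC, 0 members of these lists passed.

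**Figure D5:**
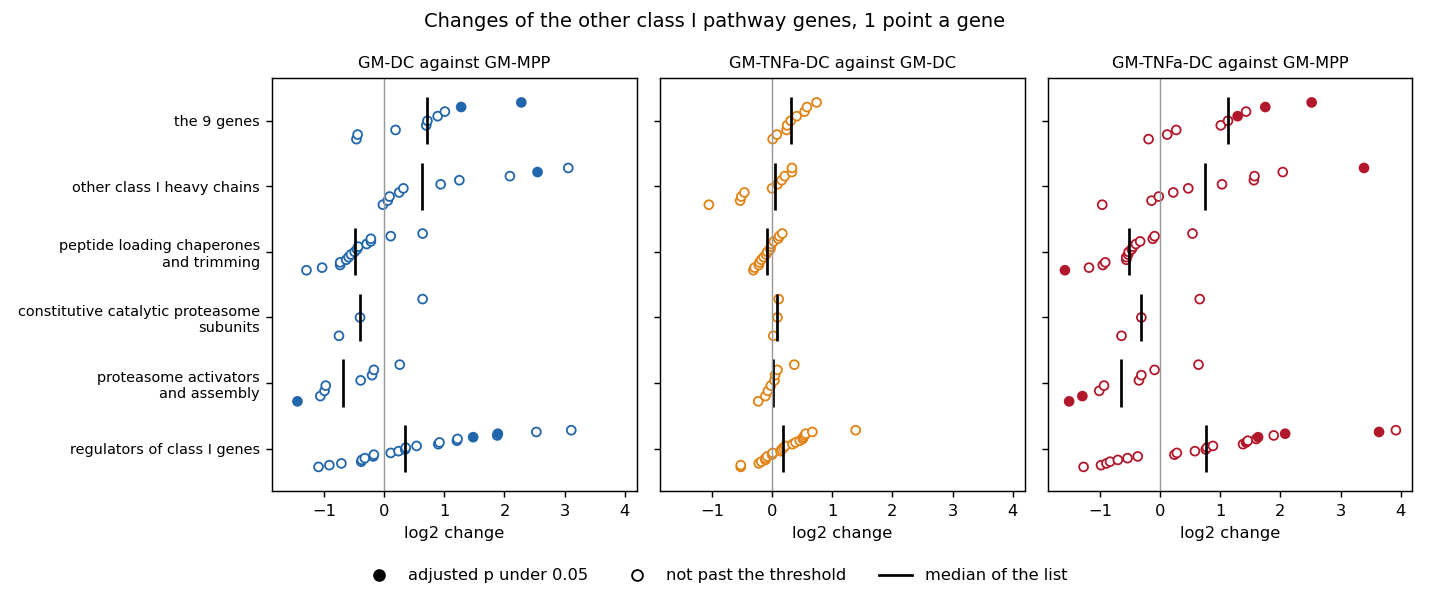
Log2 change of each gene in 6 lists, 1 point a gene, filled where the adjusted p is under 0.05, with the median as a line. The 9 genes have medians of 0.72, 0.31 and 1.13 in GM-DC against GM-MPP, GM-TNFa-DC against GM-DC and GM-TNFa-DC against GM-MPP, while chaperones and trimming enzymes have -0.49, -0.08 and -0.52.

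The genes most like the 9 were sought among 5511 other genes that varied by at least 1 log2 unit over the 6 arrays, by Pearson correlation with the mean standardized profile of the 9. The 5 highest were Iah1 (r = 0.9875), Mreg (0.9866), Tnip1 (0.9841), Spred1 (0.9828) and Cd99 (0.982). Tnip1, for instance, was at 10.72 and 10.90 in GM-TNFa-DC, 9.82 and 10.15 in GM-DC, and 8.89 and 9.55 in GM-MPP. These values describe 6 arrays that fall into 3 groups, and nothing further was tested on them.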

How the data were processed

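Values came from the deposited table of log2 expression levels for 45101 probe sets on 6 arrays. Per the submitters' processing notes the authors made them with RMA, which corrects background, quantile-normalizes arrays and summarises probes. Its version and the set of arrays it was run on were not given in the sources used here. That the deposited values are log2 was inferred from their span, 1.89 to 14.4. Per the labels' protocols, 1 microgram of column-purified, DNase-treated RNA was labelled. The number of arrays limits the precision.

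On the array, 64 probe sets were controls, 34945 carried 1 gene symbol, 932 more than 1, and for 9160 none was listed. Symbols from the platform annotation were updated through Entrez identifiers, which matched a RefSeq table (GRCm38.p6) for 34741. Each gene was read from the brightest, by mean, of its single-symbol probe sets, which gave 18193 genes. Groups were compared with limma 3.58.1 in R 4.3.3 (lmFit, eBayes with trend, 3 groups sharing 1 spread, 3 residual degrees of freedom), Benjamini-Hochberg adjustment over 18193 genes and a threshold of 0.05, after tests on simulated data. Every probe set of the 9 genes was also read from a fit of all 45037. Errors are moderated SEs of log2 changes. Pairs of subunits were compared with an exact permutation test. Python 3.11.15 and matplotlib 3.10.9 made tables and plots.

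The 9 genes, the lists and the rules were chosen with earlier results of these data known. Named from the lists were up to 5 called genes a comparison, by absolute change, and a fixed panel of heavy chains, chaperones, proteasome subunits and regulators. The text gives part of them. Results were recomputed after another quantile normalization, after median centring, without dim genes, with means of probe sets, over all probe sets, with other priors, in fits of only the 4 arrays compared, with a block for the replicate number, without each array in turn, with a 2-fold minimum and within each array number.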

Additional observations from a re-analysis of the deposited data

How the results depend on the processing

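With 2 arrays a group, the calls on the 9 genes were fragile. The directions of the 6 genes without overlap against GM-MPP held in every alternative run, but most of these runs could not have turned them. Genes chosen for not overlapping keep their sign when 1 array is left out or 1 number is used alone. Other priors, fits of only the 4 arrays compared, the block, leaving out dim genes and the 2-fold minimum do not alter the log2 change. The unchanged directions therefore say little about stability. In GM-DC against GM-MPP, the 2 genes called became 1, H2-M3, with all probe sets tested, means of probe sets, only the 4 arrays compared, a prior without trend or a robust prior, and 0 to 1 with each array left out. B2m just missed the threshold under those 5 settings, with adjusted p between 0.0503 and 0.0592. All genes called, 819 in that comparison, were 1251 over all probe sets and 50 to 717 with each array left out. In GM-TNFa-DC against GM-MPP, the 3 genes called were 0 to 2 with each array left out, and the 1279 genes called in all were 2001 over all probe sets, 749 with only the 4 arrays compared and 91 to 760 with each array left out. Tap1 also lost its call with a second quantile normalization (adjusted p = 0.0519) and with all probe sets (adjusted p = 0.054). With the replicate number as a block, the 3 became 6 (besides, Tapbp with adjusted p = 0.0169, Psmb8 with 0.0419 and Psmb9 with 0.0488), the 1279 became 2060, and in GM-DC against GM-MPP the 819 became 1476 with the 2 genes called again. The labels do not say that a number pairs samples. The deviations of same-numbered arrays correlated at 0.806 between the dendritic cell groups, 0.105 between GM-DC and GM-MPP and 0.072 between GM-TNFa-DC and GM-MPP, while 24 of 24 poly-A control probe sets were brighter on number 1 in each group. Psmb8 also passed in GM-TNFa-DC against GM-MPP with dim genes left out (adjusted p = 0.0495). In GM-TNFa-DC against GM-DC, 0 genes were called under every alternative, which with so few arrays says nothing about stability.

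Small changes turned sign. In GM-TNFa-DC against GM-DC, B2m was at -0.00 with median centring and -0.04 with a second quantile normalization, and with each array left out B2m ranged from -0.19 to 0.20, H2-M3 from -0.01 to 0.50, Tap2 from -0.01 to 0.52 and Psmb10 from -0.20 to 0.35. Psmb10 in GM-DC against GM-MPP ranged from -0.09 to 0.47. In GM-TNFa-DC against GM-MPP, Tap2 ranged from -0.45 to 0.08 and Tapbpl from -0.12 to 0.37. The causes were not tested. Counts of calls cannot be made from 1 array number alone.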

Other observations

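Genes used in cross-presentation, the loading of class I with peptides from proteins taken up, went both ways. Of 15, 1 rose and 1 fell in GM-DC against GM-MPP, and the median was -0.11. Without overlap between the groups, 5 were higher and 7 lower, against 28.3% and 27.0% of all genes. Cd36, a scavenger receptor, was at 7.79 and 10.44 in GM-DC against 2.76 and 2.80 in GM-MPP (log2 change 6.34 ± 1.10, adjusted p = 0.0408). Rab27a, a GTPase of vesicle transport, was at 6.94 and 7.68 in GM-DC against 9.60 and 9.78 in GM-MPP (-2.38 ± 0.30, adjusted p = 0.0197). Xcr1, a receptor of the dendritic cells best known for cross-presentation, was at 3.47 and 3.62 in GM-DC against 3.37 and 3.30 in GM-MPP, below the array medians.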
